A study of Rattus norvegicus with 16 samples.

Results

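Ribonucleotide reductase is the enzyme that hydroxyurea inhibits, and the genes described here are its 3 subunits (Rrm1, Rrm2, Rrm2b) together with the enzymes that salvage, make or remove deoxynucleotides (Tk1, Tk2, Dck, Dguok, Tyms, Dut, Samhd1). All 10 were taken by gene symbol, and every probe whose RefSeq accession maps to one of them was kept, which gave 12 of the 30367 probes and 10 of the 15715 named genes on the array. RNA came from primary hippocampal neurons, prepared from Sprague-Dawley rats at embryonic day 18 and measured on 1-colour Agilent arrays. Cultures were left untreated or given 5 µM hydroxyurea for 2, 6, 12 or 24 h, with 3 samples in each of the 5 groups. Untreated replicate 1 was hybridised on both slides used, so 16 arrays stand for 15 samples, and its 2 arrays were averaged. Before the drug was added, the medium of the cultures was changed to one without antioxidant supplements. How long the untreated cultures spent in that medium is not stated, so they are not known to match any treatment in time. The labels name primary neurons as the cell type, while the extraction text speaks of hippocampal tissue. Nothing states that replicates were separate cultures, so p-values cover only the variation from sample to sample, and that may be technical.

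As background, ribonucleotide reductase turns ribonucleotides into the deoxynucleotides from which DNA is built, with Rrm1 as the large catalytic subunit and Rrm2 or Rrm2b as the small subunit that carries the radical which hydroxyurea quenches. Dividing cells make Rrm2, Tk1 and Tyms mainly around S phase. Neurons no longer divide, and they still need deoxynucleotides for DNA repair and for mitochondrial DNA, which Rrm2b, Tk2 and Dguok are known to serve. Samhd1 works in the other direction and breaks deoxynucleoside triphosphates down.

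No measured gene of the set changed detectably in transcript level at any time of treatment. Of the 10 genes, 9 were measured well above background on all 16 arrays, and none passed an adjusted p of 0.05 in limma at 2, 6, 12 or 24 h, over the mean of the 4 times, or among the 4 times. The same held for every feature tested: of 18123 features, 0 (0%) were called in each of these 6 comparisons. The intervals around the differences are narrow for several of the genes. They bound the signal of the tested probe only, and they rest on variation from sample to sample that may be technical. The second probes of Rrm2 and Tk2 did not move with the tested ones. Over the mean of the 4 times, the 95% intervals allow a change of at most 1.16-fold in either direction for Tk2, 1.17-fold for Dguok, 1.18-fold for Tk1, 1.20-fold for Rrm1, 1.22-fold for Samhd1 and 1.23-fold for Dut. They allow 1.34-fold for Rrm2, 1.34-fold for Dck and 1.35-fold for Tyms. At single times the intervals are wider and reach 1.61-fold, for Tyms at 12 h.

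On the array as a whole, 64.6% to 70.4% of probes were well above background, and no spot was saturated. The spread between spots of the same probe, as a median coefficient of variation, was 17.1% for 12 h replicate 3, 7.86% for untreated replicate 1 on its first array, and 3.08% to 6.08% for the remaining 14 arrays. Without 12 h replicate 3 the 12 h difference, treated minus untreated on the log2 scale, was 0.11 in place of 0.17 for Rrm1, -0.07 in place of 0.04 for Tk1 and -0.10 in place of 0.09 for Dck, and the values for Rrm2, Tyms and Dut stand with these genes below. All 15 neuronal markers on the array (Map2, Tubb3 and Snap25 among them) were well above background on every array. The cultures also held RNA of other cells: 10 of 11 astrocyte markers, 9 of 10 of the oligodendrocyte lineage and 9 of 9 of radial glia and progenitors were well above background on every array, as were 20 of 21 genes of S phase and division. Microglial markers were so for 5 of 12, with C1qc, Itgam and Ptprc on no array, endothelial markers for 4 of 8, with Cldn5, Emcn, Flt1 and Tek on no array, and fibroblast and pericyte markers for 7 of 10, with Anpep and Rgs5 on no array. In bulk RNA, fewer cells of a type and less RNA per cell cannot be told apart.

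Start-site sequences are shown for the genes in which a search found a motif, because these cultures held S phase transcripts and Tyms and Rrm1 are enzymes that S phase uses. The 250 bases before the transcript start that the RefSeq table (build GRCr8) lists for each gene, which need not be the outermost start of the gene, were searched on both strands for an E2F site (TTTCCCGC, TTTGGCGC, TTTCGCGC or TTTGCCGC) and for a CCAAT box (CCAAT). No E2F spelling contains the CCAAT letters. Among the 8 genes with an entry, Tyms held an E2F match, which 484 of 21851 windows (2.22%) do, and Rrm1 held a CCAAT box, as do 7645 windows (35%). A match describes letters only. For Tyms the listed start lies inside the annotated gene (chr9:120760057-120776149), downstream of its outermost start. The match of Tyms therefore lies within the gene. The Rrm1 window lies at chr1:166235654-166235903 on the plus strand, and the Tyms stretch, from 48 to 19 bases before that listed start, lies at chr9:120776102-120776131 on the minus strand. Both are written 5′ to 3′ with the match in capitals.
Rrm1: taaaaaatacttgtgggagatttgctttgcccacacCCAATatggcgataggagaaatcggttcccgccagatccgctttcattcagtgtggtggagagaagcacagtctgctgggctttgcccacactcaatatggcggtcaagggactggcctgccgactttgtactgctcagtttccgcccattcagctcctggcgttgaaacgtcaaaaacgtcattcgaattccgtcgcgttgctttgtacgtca
Tyms: aaggtgcgggtTTTGGCGCcgactacactg

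The question put to these genes was whether cultures given hydroxyurea hold more or less of the reductase transcripts. Whether the dose inhibited the reductase in these cultures was not measured here. Values are the processed signal on the log2 scale, less the 75th percentile of its array, so that 1 unit is a doubling, and levels of different probes are not compared. Rrm1, the large subunit (probe A_44_P299721, NM_001013236), read -4.26, -4.16 and -4.11 in the 3 untreated samples. It read -4.25, -4.10 and -4.09 at 2 h and -4.17, -4.08 and -4.18 at 6 h. At 12 h the values were -3.98, -4.16 and -3.88, and at 24 h -4.55, -4.01 and -4.20. Every treated group overlapped the untreated one, and both the highest sample (12 h replicate 3) and the lowest (24 h replicate 1) were treated. Group means ran from -4.25 ± 0.28 (SD, n = 3) at 24 h through -4.18 ± 0.08 in untreated samples to -4.01 ± 0.14 at 12 h, and no neighbours in that order differ beyond their spread. Treated minus untreated was 0.04 (SE 0.10, 95% interval -0.19 to 0.26) over the 4 times, and an exact permutation test over the 455 ways to draw 3 of 15 samples gave p = 0.666. With slide as a term it was 0.06, on slide 1 alone -0.02 and on slide 2 alone 0.15. The sign thus differed between the slides, which hold different samples apart from untreated replicate 1.

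Rrm2, the small subunit made in dividing cells, is read by 2 probes of the same transcript (NM_001025740). The brighter one (A_64_P104009), which entered the fit, read 3.19, 3.06 and 2.78 in untreated samples. Treated values were 3.25, 3.18 and 3.20 at 2 h, 2.92, 3.24 and 3.31 at 6 h, 3.07, 3.08 and 3.38 at 12 h, and 3.22, 2.58 and 3.18 at 24 h. The lowest sample was 24 h replicate 2 and the highest 12 h replicate 3, and all 4 times overlapped the untreated samples. Means were 3.01 ± 0.21 untreated, 3.21 ± 0.04 at 2 h, 3.16 ± 0.20 at 6 h, 3.17 ± 0.18 at 12 h and 3.00 ± 0.36 at 24 h (SD, n = 3 each). The difference was 0.12 (SE 0.14, 95% interval -0.17 to 0.42; exact permutation p = 0.387), the largest of the 9 genes over the 4 times. It was 0.08 with slide as a term and 0.19 on slide 2 alone, while on slide 1 alone it was -0.00058. Its 12 h difference alone was 0.16, and 0.06 without 12 h replicate 3.

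The dimmer Rrm2 probe (A_64_P113802) read -3.73, -3.32 and -3.47 untreated and -3.25, -3.35 and -2.94 at 12 h. Its 12 h difference was 0.32, with a 95% interval of 0.05 to 0.60 that, before adjustment, leaves out 0. The unadjusted limma p was 0.0258 and the adjusted p 0.997 (Benjamini-Hochberg over all features), and the groups overlapped. Without 12 h replicate 3 the difference was 0.20. Across the 15 samples the 2 Rrm2 probes did not move together: Pearson r was 0.16 (permutation p = 0.560, adjusted 0.692 over 2 such pairs) and Spearman rho -0.08 (p = 0.784, adjusted 0.832). Without the 2 samples farthest from the median, 24 h replicate 2 and untreated replicate 3, r was 0.08, and within slides it was -0.66 and 0.33 over 8 arrays each. The low reading of 24 h replicate 2 on the brighter probe had no counterpart on the dimmer one, which read -3.49 in that sample.

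Rrm2b, the small subunit that p53 induces and that serves cells outside S phase, has 1 probe (A_44_P380274, NM_001130543), and it was not well above background on any of the 16 arrays. Its processed intensity lay between 3.58 and 16.9, and the faintest probe to clear that mark read, depending on the array, between 10.4 and 22.7. Rrm2b exceeded that faintest probe on the repeat array of untreated replicate 1 (14.5 against 12.2). It also did so in untreated replicate 3 (16.9 against 16.3) and 12 h replicate 3 (10.6 against 10.4). A probe passes only with more than 0.5 of its spots flagged. On that repeat array, in untreated replicate 3 and in 2 h replicate 3, 1 of the 2 Rrm2b spots was flagged. No fold change is given, because every group has only a bound. Under that rule the array gives no usable reading of the small reductase subunit that is known to serve resting cells.

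**Figure D1:**
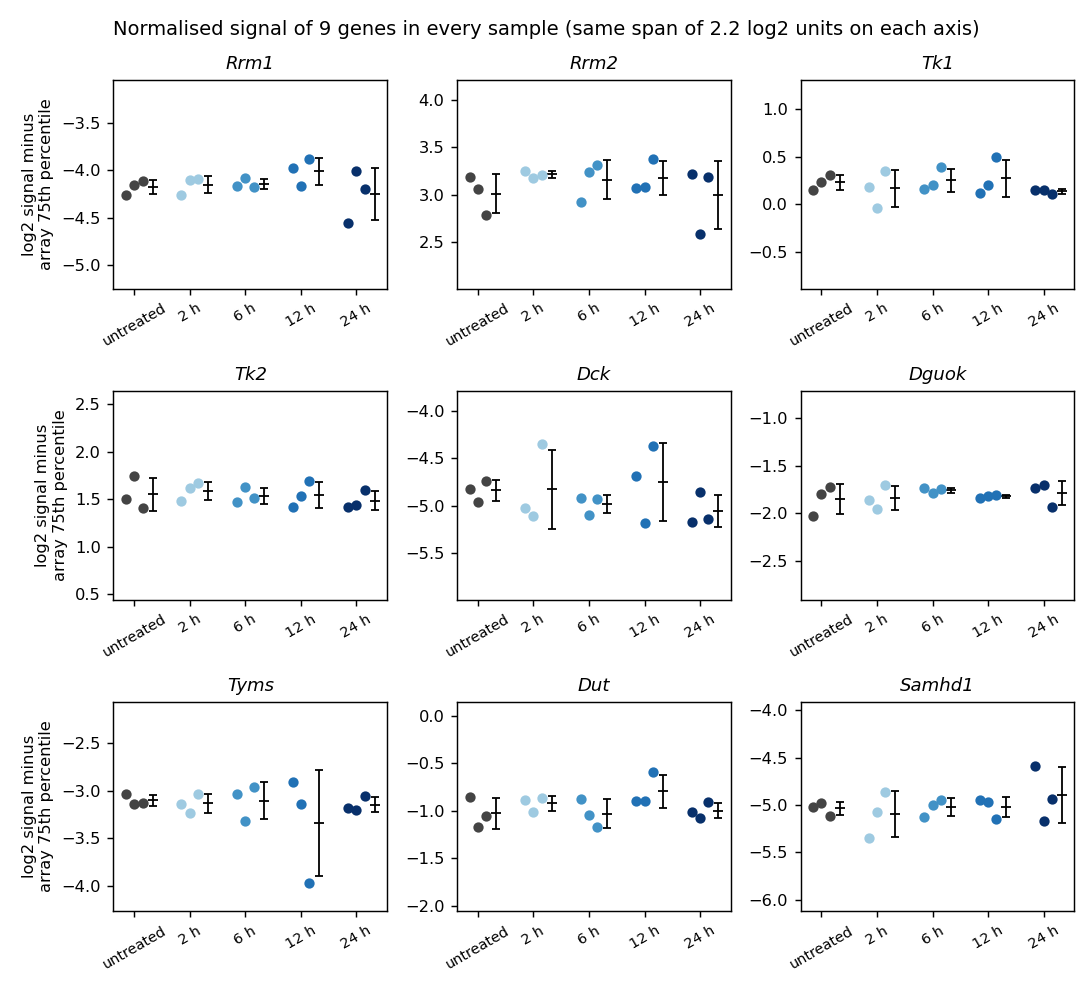
Normalised signal (log2 signal minus the array's 75th percentile, vertical axis) of the 9 genes measured above background, in untreated samples and at 2, 6, 12 and 24 h of hydroxyurea. Points are the 3 samples of a group, replicates 1 to 3 from left to right, and the bar beside them is their mean ± SD. Treated and untreated points overlap in every panel, and the lowest Tyms point, -3.97, is 12 h replicate 3.

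Salvage kinases add the first phosphate to deoxynucleosides taken up or recycled by the cell. Tk1, the cytosolic thymidine kinase of dividing cells (A_42_P843603, NM_052800), read 0.15, 0.24 and 0.30 in untreated samples and 0.18, -0.04 and 0.35 at 2 h. It read 0.16, 0.21 and 0.39 at 6 h, 0.12, 0.20 and 0.49 at 12 h, and 0.15, 0.15 and 0.11 at 24 h. The 24 h samples were the closest together (0.14 ± 0.03, SD, n = 3) and lay near the lower end of the untreated range (0.23 ± 0.08), which they overlapped. The difference over the 4 times was -0.02 (SE 0.10, 95% interval -0.24 to 0.19; exact permutation p = 0.802).

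Tk2, the mitochondrial thymidine kinase, has 2 probes for NM_001106166. The brighter (A_44_P699797) read 1.50, 1.74 and 1.41 untreated, and its group means all lay between 1.49 ± 0.10 at 24 h and 1.59 ± 0.10 at 2 h (SD, n = 3). Its highest and its lowest sample were both untreated, so that the untreated range contained all 12 treated values. The difference was -0.01 (SE 0.09, 95% interval -0.21 to 0.19; exact permutation p = 0.864). The dimmer probe (A_44_P248358) gave -0.02 over the 4 times, and at 2 and 24 h, where the brighter gave 0.04 and -0.07, it gave -0.19 and 0.12. Over the 15 samples the 2 Tk2 probes were unrelated, with Pearson r -0.11 (permutation p = 0.692, adjusted 0.692) and Spearman rho -0.06 (p = 0.832). Without 24 h replicate 2 and 2 h replicate 3, r was 0.22, and within slides it was 0.36 and -0.44.

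**Figure D2:**
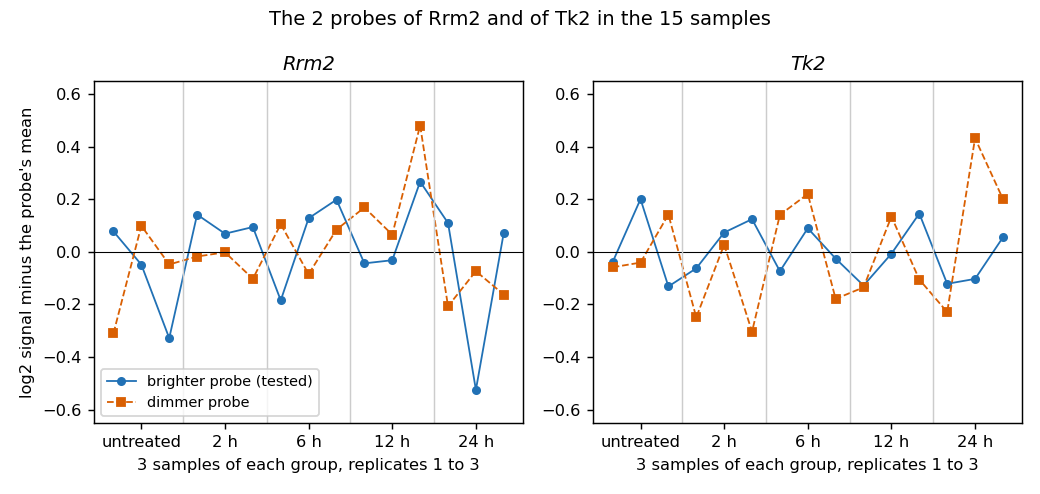
Log2 signal minus the mean of the same probe (vertical axis) for the brighter, tested probe and the dimmer probe of Rrm2 (left) and of Tk2 (right) in the 15 samples, 3 per group in the order of replicates. The lines join points of a probe only to guide the eye. Across the 15 samples r was 0.16 for the Rrm2 probes and -0.11 for the Tk2 probes, while 12 h replicate 3 is the highest sample on both Rrm2 probes.

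Dck, the cytosolic deoxycytidine kinase (A_44_P482294, NM_024158), was among the noisiest of the set, with a residual SD of 0.28 that 75.3% of tested features stay below. It read -4.82, -4.96 and -4.74 in untreated samples, -5.02, -5.11 and -4.35 at 2 h, and -4.92, -5.09 and -4.93 at 6 h. At 12 h it read -4.69, -5.19 and -4.37, and at 24 h -5.17, -4.86 and -5.14. Replicate 3 was the highest sample at both 2 and 12 h, and the means of those groups carry an SD of 0.41 (n = 3). The lowest group was 24 h, at -5.06 ± 0.17 against -4.84 ± 0.11 untreated, a difference of -0.22 (SE 0.21) with overlapping samples. Over the 4 times the difference was -0.06 (SE 0.17, 95% interval -0.42 to 0.30; exact permutation p = 0.758), and it took the other sign, 0.17, under another background correction (normexp).

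Dguok, the mitochondrial deoxyguanosine kinase (A_64_P127267, NM_001106602), was the steadiest, with a residual SD of 0.11 that only 8.11% of features stay below. Its untreated samples read -2.02, -1.79 and -1.72. Treated means were -1.84 ± 0.13 at 2 h, -1.76 ± 0.03 at 6 h, -1.82 ± 0.02 at 12 h and -1.79 ± 0.13 at 24 h (SD, n = 3). The lowest of all 15 samples was untreated replicate 1. On its first array the 2 spots of the probe read -2.87 and -1.75, and on the repeat array -1.68 and -1.81. The difference over the 4 times was 0.05 (SE 0.09, 95% interval -0.14 to 0.23; exact permutation p = 0.505), and it was -0.05 when only the repeat array stood for that sample.

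Thymidylate supply rests on Tyms, which makes thymidylate from deoxyuridylate, and Dut, which hydrolyses dUTP and so provides the substrate and keeps uracil out of DNA. Tyms (A_44_P113933, NM_019179) read -3.04, -3.14 and -3.13 untreated, -3.13, -3.23 and -3.03 at 2 h, and -3.03, -3.32 and -2.96 at 6 h. It read -2.91, -3.14 and -3.97 at 12 h and -3.18, -3.20 and -3.06 at 24 h. At 12 h both the highest and the lowest of the 15 samples occur, and the difference of -0.24 (SE 0.21, 95% interval -0.68 to 0.20) is the largest of the 9 tested probes at any single time. It rests on 12 h replicate 3, where the 2 spots of the probe read -2.94 and -5.00 and so differ 4.18-fold. Without that sample the 12 h difference was 0.08, and with the brighter spot of each pair 0.05. Over the 4 times Tyms gave -0.08 (SE 0.16, 95% interval -0.43 to 0.27; exact permutation p = 0.582).

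Dut (A_44_P290519, NM_053592) read -0.85, -1.18 and -1.05 in untreated samples. It read -0.89, -1.01 and -0.87 at 2 h, -0.87, -1.05 and -1.17 at 6 h, -0.90, -0.89 and -0.59 at 12 h, and -1.01, -1.07 and -0.91 at 24 h. Its 12 h mean, -0.80 ± 0.17, against -1.03 ± 0.16 untreated (SD, n = 3), gave 0.23 (SE 0.12, 95% interval -0.03 to 0.50), with an unadjusted p of 0.0819 and an adjusted p of 0.997 in limma. That was the smallest unadjusted p of the 9 tested probes at any single time. It moved with the samples used: the 12 h difference was 0.13 without 12 h replicate 3, 0.32 (unadjusted p = 0.0318 in limma, adjusted 0.990) without untreated replicate 1, and 0.25 (unadjusted p = 0.0489 in limma, adjusted 0.992) with only the repeat array of that sample. Its highest sample was 12 h replicate 3, and untreated replicate 1 lay above both other 12 h samples. The 12 h difference was 0.08 on slide 1, which holds only 12 h replicate 1, and 0.24 on slide 2, which holds 12 h replicates 2 and 3. With slide as a term it was 0.19. Over the 4 times it was 0.09 (SE 0.10, 95% interval -0.12 to 0.30; exact permutation p = 0.360), and it kept a positive sign under all 30 alternatives run for this gene.

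Samhd1, the deoxynucleoside triphosphate hydrolase (A_44_P140358, NM_001191743), read -5.02, -4.98 and -5.11 in untreated samples. It read -5.35, -5.08 and -4.86 at 2 h, -5.12, -5.00 and -4.94 at 6 h, -4.95, -4.97 and -5.15 at 12 h, and -4.59, -5.17 and -4.94 at 24 h. The untreated samples sat inside the treated range, whose ends were 2 h replicate 1 and 24 h replicate 1. In the latter the 2 spots read -4.09 and -5.09. The difference was 0.03 (SE 0.12, 95% interval -0.23 to 0.28; exact permutation p = 0.776), with -0.11 on slide 1 alone and 0.20 on slide 2 alone. Its processed intensity, 37.5 to 79.6, was dim but above the 10.4 to 22.7 at which probes began to clear background.

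**Figure D3:**
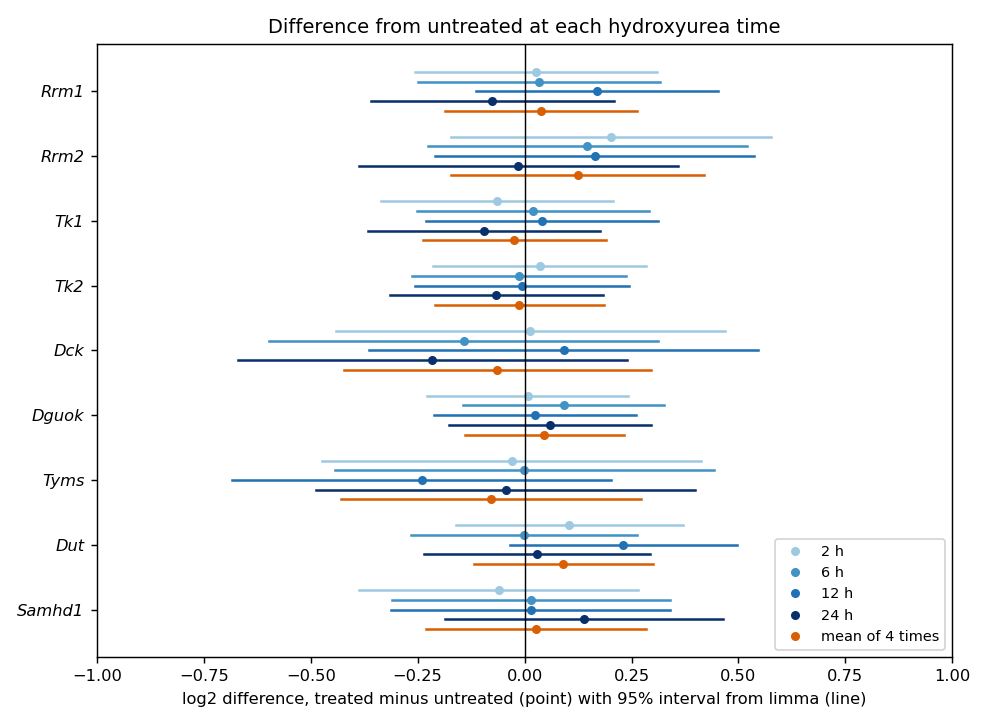
Log2 difference, treated minus untreated (horizontal axis), for the 9 genes (rows) at 2, 6, 12 and 24 h and over the mean of the 4 times. Points are limma estimates and lines their 95% intervals. All 45 intervals, each for the tested probe of its gene, include 0. The widest belong to Dck and Tyms, while those of Tk2 and Dguok are the narrowest.

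Set side by side, the 4 comparisons with untreated samples share those 3 samples, so they are not separate evidence. At 2 h, 6 of the 9 genes had a positive difference and 3 a negative one, with a median size of 0.04. At 6 h the split was 5 to 4 with a median size of 0.02, at 12 h 7 to 2 with 0.09, and at 24 h 3 to 6 with 0.07. Over all 18123 features the median size was 0.08 at 2 h, 0.06 at 6 h, 0.11 at 12 h and 0.08 at 24 h. The median size for these genes lay below that of all features at each time. These 9 genes cleared background on every array, while a feature had to do so only in 1 group or more. No set matched for signal was compared. An unadjusted p under 0.05 occurred for 0 of the 9 tested probes at every time, against 1.19% of all features at 2 h, 0.739% at 6 h, 2.32% at 12 h and 0.866% at 24 h. Treated and untreated samples were without overlap for 0 of the 9, against 6.35%, 3.83%, 5.07% and 2.94% of features at these times. For the mean of the 4 times those shares were 1.68% and 0.0607%. The moderated F test among the 4 times gave unadjusted p-values from 0.278 for Dut to 0.872 for Dguok, and 1.09% of features had one under 0.05.

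How far apart repeated readings of one RNA lie can be read from the arrays themselves. The 8 genes whose tested probe is spotted 2 times give 128 pairs of spots, which differed by a median of 0.08 on the log2 scale. In 8 of those pairs the gap exceeded 0.5, and 3 of the 8 were on the array of 12 h replicate 3. That sample held the highest value of the 15 for 4 of the 9 genes (Rrm1, Rrm2, Tk1 and Dut) and the lowest for Tyms. The 2 arrays of untreated replicate 1 differed, slide 2 minus slide 1, by 0.56 for Dguok, -0.44 for Rrm1, -0.28 for Samhd1 and -0.14 for Dut, and by 0.07 or less for the other 5. For Dguok, Rrm1, Samhd1 and Dut, and also for Tk1 and Tk2, this gap is larger in size than the difference over the mean of the 4 times. The gap compares single arrays of 1 RNA, while that difference averages 12 treated and 3 untreated samples. At single times some differences were larger than the gap, such as 0.23 for Dut at 12 h.

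**Figure D4:**
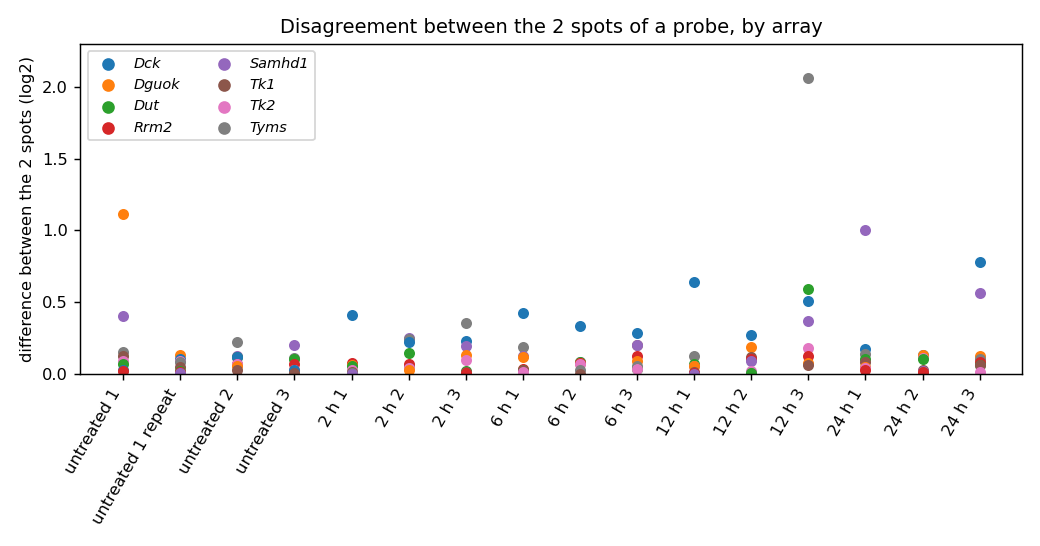
Absolute difference between the 2 spots of a probe (log2, vertical axis) on each of the 16 arrays (horizontal axis) for the 8 genes whose tested probe has 2 spots. Most points lie near the median of 0.08, and Tyms on the array of 12 h replicate 3 (2.06), Dguok on the first of the arrays of untreated replicate 1 (1.12) and Samhd1 on that of 24 h replicate 1 (1.00) stand apart.

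Because several of these enzymes belong to S phase, each gene was set against the mean of 20 genes of S phase and division over the 15 samples, 9 relations in all. None passed 0.05 after adjustment. Dguok ran opposite to the list, with Pearson r -0.65 (permutation p = 0.00858, adjusted 0.0747) and Spearman rho -0.67 (p = 0.00778, adjusted 0.0700). It was -0.61 without 24 h replicate 2 and untreated replicate 3, and -0.85 and -0.43 within the slides. Rrm2 gave r 0.62 (permutation p = 0.0166, adjusted 0.0747) with rho 0.27 (p = 0.335, adjusted 0.542), and r was -0.25 without those 2 samples, so the relation rests on them. Tyms, the gene with the E2F match printed above, gave r 0.36 (permutation p = 0.171, adjusted 0.512) and rho 0.57 (p = 0.0296, adjusted 0.133). Without the same 2 samples its r was 0.61, and within slides it was 0.49 and 0.27. Rrm1 gave r -0.27 (permutation p = 0.317, adjusted 0.529) and rho -0.47 (p = 0.0815, adjusted 0.245), with -0.11 without the 2 samples and 0.25 and -0.45 within slides. For the other 5 genes Pearson r lay between -0.31 and 0.14, although Dut reached 0.80 within slide 1 and was at 0.04 within slide 2.

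The named genes whose profile over the 15 samples was most like each member were found by Pearson r among 10085 candidates, as a description of these samples only. For Rrm2 they were Ppp2r5e (0.96) and Ctnna2 (0.95), and for Tyms, whose profile is led by 12 h replicate 3, Bard1 (0.96) and Pdpn (0.95). Abcc8 (0.93) and Atp8a2 (0.89) were nearest to Tk1, Ccdc22 (0.92) and Snapc5 (0.90) to Dck, and Gpd1l1 (0.88) and Crb2 (0.85) to Rrm1. For Dguok they were Dbn1 (0.88) and Dolk (0.84), for Dut Zbtb10 (0.86) and Slc22a15 (0.85), for Tk2 Cebpb (0.82) and Tm7sf3 (0.80), and for Samhd1 Tnnc2 (0.71) and Cdc42bpb (0.70). No member was among the nearest genes of another.

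No gene in the rest of the nucleotide pathway was called. Over the mean of the 4 times, limma called 0 genes in either direction in each list below, as it called 0% of all features, whose median difference was 0.0020. Among 17 nucleotide kinases, which carry monophosphates up to triphosphates, 10 differences were positive and 7 negative, with a median of 0.01. Nme4, a mitochondrial nucleoside diphosphate kinase, gave the smallest unadjusted p there, with a difference of -0.13 (SE 0.15). Of 12 genes of nucleotide hydrolysis and breakdown, 7 were positive and 5 negative (median 0.0064). Nudt1, which clears oxidised purine triphosphates, had the lowest unadjusted p of all the pathway lists, 0.0556, with a difference of 0.43 (SE 0.20). That value rests on untreated replicate 1, without which it was 0.01. Dctd, which deaminates dCMP toward thymidylate synthesis, gave -0.13 (SE 0.12).

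In the folate and thymidylate cycle, 4 of 7 genes were positive (median 0.03), with Mthfd1, a folate-interconverting enzyme, at 0.21 (SE 0.12), and at 0.02 without untreated replicate 1. Ribonucleotide synthesis, which makes the substrates of the reductase, had 11 of 18 positive (median 0.02), with Dhodh of the pyrimidine branch at 0.14 (SE 0.12) and Adsl of the purine branch at -0.13 (SE 0.15). Of the reductase's electron donors and regulators, 4 of 9 were positive (median -0.01). Glrx, a glutaredoxin that can donate electrons to the reductase, gave -0.13 (SE 0.08), and Ahcyl1, which binds and inhibits Rrm1, gave 0.14 (SE 0.11). Among nucleoside and nucleotide transporters 6 of 8 were positive (median 0.05), with Slc29a1, the equilibrative nucleoside transporter of the plasma membrane, and Slc25a33, a mitochondrial pyrimidine nucleotide carrier, both at 0.13 (SE 0.12 and 0.11). Mitochondrial DNA maintenance had 7 of 13 positive (median 0.05), with Tefm, the mitochondrial transcription elongation factor, at 0.19 (SE 0.10, unadjusted p = 0.0766 in limma) and Twnk, the replicative helicase, at 0.15 (SE 0.12).

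Cell cycle, checkpoint and interferon genes were not called either. For S phase and division, 8 of 21 differences were positive and 13 negative (median -0.01), with Ccnb1, a mitotic cyclin, at 0.33 (SE 0.23) and Gins2, of the replicative helicase, at 0.18 (SE 0.13). Without untreated replicate 1 Ccnb1 turned to -0.11. For p53 targets and the checkpoint, 10 of 14 were positive (median 0.07), while both genes with the smallest unadjusted p, Gadd45a and the replication checkpoint kinase Chek1, were at -0.14 (SE 0.09 each). Interferon response genes, which are known to rise when Samhd1 is lost, were 3 positive and 3 negative of 6 (median 0.01), with Irf7 at -0.22 (SE 0.27) and Rsad2 at 0.16 (SE 0.22), the latter at -0.01 without untreated replicate 3. Single samples carry much of such values: of the 34 genes that the naming rule picks from these lists and from the marker lists below, 32 moved by more than 1.5 times, and 4 of them changed sign, when some sample was left out.

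Markers of other cells did differ between samples, and their part in the values above was not tested. The summed level of 10 astrocyte markers, log2 of the sum of scaled signals, was 6.82 to 7.12 in untreated samples, 7.18 to 7.26 at 2 h, 7.16 to 7.21 at 6 h, 7.22 to 7.48 at 12 h and 7.12 to 7.30 at 24 h. All 12 treated samples lay above the 3 untreated ones, at 24 h by less than the last digit shown. That order rests on Aldoc: summed without it, the markers ran from 5.59 to 6.10 in untreated samples and overlapped them at every time (5.83 to 6.00 at 2 h, 5.82 to 6.00 at 6 h, 5.95 to 6.18 at 12 h, 5.72 to 6.11 at 24 h). Of those markers 9 of 10 had a positive difference over the 4 times (median 0.08), led by Aldoc, a glial aldolase, at 0.45 (SE 0.14, unadjusted p = 0.00639) and Slc1a2, the glial glutamate transporter, at 0.33 (SE 0.14, unadjusted p = 0.0344), neither called by limma after adjustment. Without untreated replicate 1, Aldoc was at 0.18 and Slc1a2 at 0.15, with 8 of 10 markers positive and a median of 0.14. Aldoc and Slc1a2 each have another probe well above background on every array, whose difference is not given here. Neuronal markers gave 7 positive and 8 negative (median -0.01), with Slc17a6 and Snap25 both at -0.12 (SE 0.10 and 0.11), and their summed level was 6.83 to 6.93 untreated and 6.70 to 7.21 over all treated samples. Radial glia and progenitor markers had 6 of 9 positive (median 0.05), with Hes5 at 0.33 (SE 0.16) and Fabp7 at 0.15 (SE 0.15). Hes5 was at 0.20 without untreated replicate 1, and Fabp7 at -0.02 without untreated replicate 3. The other lists were smaller or dimmer: microglia 6 of 7 positive (Tyrobp 0.20, SE 0.19, which was -0.08 without untreated replicate 1, and Csf1r 0.11, SE 0.12), oligodendrocyte lineage 5 of 9 (Mbp 0.24, SE 0.32, and Olig1 -0.07, SE 0.11), endothelium 2 of 4 (Cdh5 0.23, SE 0.18, and Kdr -0.19, SE 0.23). Fibroblasts and pericytes had 1 of 8 positive (Lum -0.38, SE 0.30, and Acta2 0.07, SE 0.12). The mean level of the fibroblast and pericyte list, as log2 deviation from each gene's mean, was -0.42 to -0.26 in the 5 samples numbered 2. It was 0.29 to 0.45 in the samples numbered 3 and -0.14 to 0.15 in those numbered 1, except at 24 h, where replicate 1 read 0.40 and replicate 3 read -0.10.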

How the data were processed

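The deposited scanner files hold spot intensity, per the file headers from Agilent Feature Extraction 11.5.1.1 (protocol GE1_1105_Oct12, design build rn4), with background subtracted and no scaling between arrays. The authors also deposited a score per array, which is the log signal less its array mean, divided by its SD; the columns of 24 h replicates 1 and 3 match each other's scanner file, and the scanner files were used as labelled. Here control spots and flagged outlier spots were dropped, spots of a probe were averaged, and log2 signal minus the array's 75th percentile over non-control spots was fitted by lmFit and eBayes of limma 3.58.1 (R 4.3.3; all 15 samples, two-sided, no covariate). Probes had to clear background on all arrays of 1 group or more, a gene's brightest probe entered the fit, and features without a value in a sample were left out. P-values were adjusted by Benjamini-Hochberg over all 18123 features of a comparison (threshold 0.05). Permutation tests, run with scipy 1.17.1, were two-sided. Scripts were tested on simulated data. The number of arrays limits the precision.

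The members and gene lists were chosen with earlier results of these data known. Named are all members and their probes, the 2 genes per list with the smallest unadjusted p over the mean of the 4 times, and the 2 nearest profiles of each member; 2 genes that this rule names are not reported here. Alternatives covered background correction, scaling, the deposited scores, dim-probe filters, slide, replicate number, the 2 arrays of untreated replicate 1, other probes and each sample left out. After the data were seen, 4 more were added: both arrays with uneven spots left out, the brighter spot of each pair, the replicate block with 24 h replicates 1 and 3 exchanged, and each sample left out for the named list genes. The planned normexp correction used the median spot signal, because the mean signal is not a column of the files. Same-numbered samples deviated together, with a correlation over 0.1, in 19 of 30 pairs (-0.42 to 0.43), and in 24 of 30 (0.0060 to 0.43) with 24 h replicates 1 and 3 exchanged as in the score columns. The labels state no pairing and not every pair passed either way, so the main fit and the permutation tests took samples as unpaired. They therefore leave out the structure by replicate number that these correlations and the fibroblast and pericyte list show in part. Fits with a replicate block are given below.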

Additional observations from a re-analysis of the deposited data

How the results depend on the processing

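Over 31 alternatives (15 of them leaving out 1 sample each), 1360 values of the 9 genes were recomputed. None passed the adjusted threshold in limma (adjusted p 0.565 or above), and an unadjusted p under 0.05 occurred 4 times. Signs are not settled: 123 of 1088 values at single times and 30 of 272 over the mean of the 4 times changed sign, and 26 values at single times moved by 1 residual SD or more. The cause was not tested.

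Over all features the calls stayed at 0, apart from the following. On slide 1 alone the 12 h group is 1 sample, so the calls of that fit at 12 h are not read as a result. With the replicate block and 24 h replicates 1 and 3 exchanged, 1 feature was called over the mean of the 4 times. That feature was Ankrd37, named after its value was seen (0.70, SE 0.08, adjusted p = 0.0194 in limma). The mean over the 4 times took the other sign with normexp for Tyms (0.026) and Dck (0.17). With the deposited scores in log2 units it did so for Samhd1 (-0.077), Rrm1 (-0.053) and Tk2 (0.00175), on slide 1 alone for Samhd1 (-0.11), Rrm1 (-0.020) and Rrm2 (-0.00058), and on slide 2 alone for Tk1 (0.096), Dck (0.027), Tk2 (0.116) and Dguok (-0.012). It did so with only the first array of untreated replicate 1 for Samhd1 (-0.020) and Rrm1 (-0.034), and with only the repeat array for Dguok (-0.048). With both uneven arrays left out Tyms gave 0.010 and Dguok -0.051, and with the brighter spot Dck gave 0.087 and Dguok -0.026. Leaving out each sample in turn gave ranges of -0.064 to 0.013 for Tk1, -0.13 to 6.0e-05 for Tyms, -0.012 to 0.061 for Samhd1, -0.0026 to 0.076 for Rrm1, -0.084 to 0.083 for Tk2 and -0.044 to 0.109 for Dguok. For Rrm2 (0.01 to 0.21), Dut (0.02 to 0.18) and Dck (-0.12 to -0.0089) the sign held. With the replicate number as a replicate block no difference of these genes changed sign and 0 features were called (Rrm2 0.12, Tyms -0.08), and with the exchanged numbers no difference changed sign either and the lowest adjusted p of these genes was 0.889. Signal over background limits Rrm2b, whose probe passed the rule for it on no array.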
